A study of Mus musculus with 37 samples.

Results

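The 55 genes described here encode the chains of collagens and laminins: 44 collagen genes with a symbol of the form Col, a number, a and a number, and 11 laminin genes (Lama, Lamb or Lamc and a number). They are the protein-coding genes with such a symbol and at least 1 accessible region in the gene body or the 2 kb on either side, of 17678 protein-coding genes with a region. Nuclei came from the nucleus accumbens of adult mice (P60-210) that were heterozygous for Pvalb-IRES-Cre or Sst-IRES-Cre and for a Cre-dependent Sun1-GFP fusion of the nuclear envelope expressed from the Rosa26 locus. Nuclei pulled down with an anti-GFP antibody (IP) are called PV+ or SST+ nuclei after the Cre line, and the nuclei left in the supernatant make up the unbound fraction (UF). An ATAC-seq library was made from each, in which the count of a region follows how open its chromatin is. Both fractions therefore hold every nucleus type that the driver or the pull-down did not separate, and IP and UF libraries may share a mouse.

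Pvalb-Cre mice were given 3 mg/kg amphetamine (AMPH) or saline once and collected after 60 min (4 IP and 4 UF libraries per treatment), following a mock injection on the day before. Other Pvalb-Cre mice were given AMPH or saline on each of 6 days and collected 24 h after the last dose (4 IP and 4 UF libraries with AMPH, 3 IP and 4 UF libraries with saline). Sst-Cre mice were given saline (3 IP and 3 UF libraries). All groups were isolated in buffers with sodium butyrate, an inhibitor of histone deacetylases. The 3 sets of libraries were counted over 3 different sets of 200 bp regions, so a level is compared only within a set.

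Collagens are trimeric extracellular matrix proteins. The fibrillar collagens build cables, the fibril-associated collagens sit on those cables, and type IV collagen forms the sheet of the basement membrane. Laminins are heterotrimers of an alpha, a beta and a gamma chain that organise the basement membrane and bind integrins and dystroglycan on cells. In the brain the basement membrane surrounds blood vessels and the pial surface, while some collagens and laminins are made by neurons and act at synapses and in axon growth.

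At 60 min the 55 genes held 694 regions, of which 19 also counted for another protein-coding gene. The SST set had 602 regions in 54 genes (none in Col7a1), and the 24 h set had 609 regions in 54 genes (none in Col3a1). Total counts per library were 650666 to 15120963, with the 24 h libraries among the shallowest. Markers of PV and MGE interneurons were open as labelled, with 704 ± 103 CPM summed over the list in PV IP, against 323 ± 26.2 CPM in UF at 60 min (4 libraries each, SD; 8 of 8 genes called higher). The SST interneuron list had 168 ± 13.0 CPM in SST IP, against 76.7 ± 2.45 in UF (SD, 3 libraries each; 5 of 6 genes called higher). Oligodendrocyte markers were lower in both pull-downs, with 10 of 10 genes called lower in each.

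The promoters of 5 members are shown because accessibility at their promoter windows differed between IP and UF in at least 1 of the lines. They were chosen after these values were seen. Each is the RefSeq GRCm38.p6 window from 250 bases before to 50 bases after a promoter start, written 5′ to 3′ on the gene's strand. That start need not be the end of the gene span: the windows of Col19a1 and Col25a1 lie wholly inside the spans given below. Capitals mark a match to the AP-1 motif TGANTCA.
Col19a1, chr1:24587388-24587687, minus strand: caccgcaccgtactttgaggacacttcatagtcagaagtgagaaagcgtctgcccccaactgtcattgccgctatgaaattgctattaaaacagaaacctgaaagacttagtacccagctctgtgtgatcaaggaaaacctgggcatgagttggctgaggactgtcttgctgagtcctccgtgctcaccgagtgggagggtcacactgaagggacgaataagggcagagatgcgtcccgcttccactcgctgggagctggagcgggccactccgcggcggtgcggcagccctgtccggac
Lama5, chr2:180225810-180226109, minus strand: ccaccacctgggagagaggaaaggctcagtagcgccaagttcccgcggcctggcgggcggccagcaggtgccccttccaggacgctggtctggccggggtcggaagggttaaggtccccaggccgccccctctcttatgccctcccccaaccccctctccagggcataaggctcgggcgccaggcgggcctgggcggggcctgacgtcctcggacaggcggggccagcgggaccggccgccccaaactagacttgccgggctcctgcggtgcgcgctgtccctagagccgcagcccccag
Col6a1, chr10:76725995-76726294, minus strand: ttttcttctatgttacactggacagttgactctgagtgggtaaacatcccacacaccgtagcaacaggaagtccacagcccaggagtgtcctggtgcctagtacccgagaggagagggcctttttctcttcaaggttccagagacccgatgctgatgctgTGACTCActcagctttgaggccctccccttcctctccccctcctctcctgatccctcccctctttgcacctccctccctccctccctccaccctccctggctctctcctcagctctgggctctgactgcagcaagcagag
Col25a1, chr3:130180595-130180894, plus strand: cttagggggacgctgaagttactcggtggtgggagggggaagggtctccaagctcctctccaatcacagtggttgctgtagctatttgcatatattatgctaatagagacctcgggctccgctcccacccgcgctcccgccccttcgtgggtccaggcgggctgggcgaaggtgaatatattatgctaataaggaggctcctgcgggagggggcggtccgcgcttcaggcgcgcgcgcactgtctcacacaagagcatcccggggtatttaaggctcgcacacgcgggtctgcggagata
Col16a1, chr4:130047590-130047889, plus strand: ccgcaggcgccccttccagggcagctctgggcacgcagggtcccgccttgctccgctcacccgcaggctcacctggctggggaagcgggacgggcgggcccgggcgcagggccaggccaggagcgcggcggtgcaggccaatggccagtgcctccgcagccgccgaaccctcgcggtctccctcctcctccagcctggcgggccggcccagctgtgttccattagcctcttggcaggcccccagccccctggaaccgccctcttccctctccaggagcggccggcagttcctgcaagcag

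The 5 windows differ in base composition. Lama5 and Col16a1 have 72.7% and 74.3% G and C with 24 CpG each, Col25a1 has 60.0% with 23 CpG, Col19a1 has 56.3% with 16 CpG, and Col6a1 has 57.3% with 3 CpG. The median over 32815 RefSeq promoters was 52.7% and that over the 44 member windows was 59.5%. Of the motifs searched on both strands (TGANTCA for AP-1, TAATTA for homeodomain factors, CAGATG for E-box factors, CCGGAA for ETS factors and ACAATG for SOX factors), only TGANTCA had a match in these 5 windows, in Col6a1. All promoters hold these motifs in 7.81%, 5.30%, 17.2%, 14.9% and 12.6% of windows, and the 44 member windows hold them in 1, 2, 7, 0 and 1 cases. A match is a run of letters and not a measured binding site.

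In the saline mice at 60 min, PV+ nuclei were compared with UF to ask which of these genes are more or less open in PV+ nuclei. Accessibility summed over the gene was higher for Col19a1, Col7a1, Lama5, Col8a1 and Col26a1 and lower for Col10a1, Col6a1, Col1a1, Col12a1, Col6a3 and Col25a1. Thus 11 of 55 genes were called (5 higher, 6 lower), where called means an adjusted p under 0.05 by edgeR's quasi-likelihood test with Benjamini-Hochberg adjustment over all genes. Of all 16957 genes tested 25% were called, 11.8% higher and 13.2% lower, so the share among the members was near that of genes at large. The members' median log2 fold change (IP over UF) was -0.13, against -0.01 over all genes. Same-numbered IP and UF libraries deviated together, and a fit that blocks on the replicate number had 22 members called (9 higher, 13 lower), or 40% of them, against 39% of all genes in that fit. In bulk libraries, fewer nuclei of a type and less open chromatin per nucleus cannot be told apart.

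**Figure D1:**
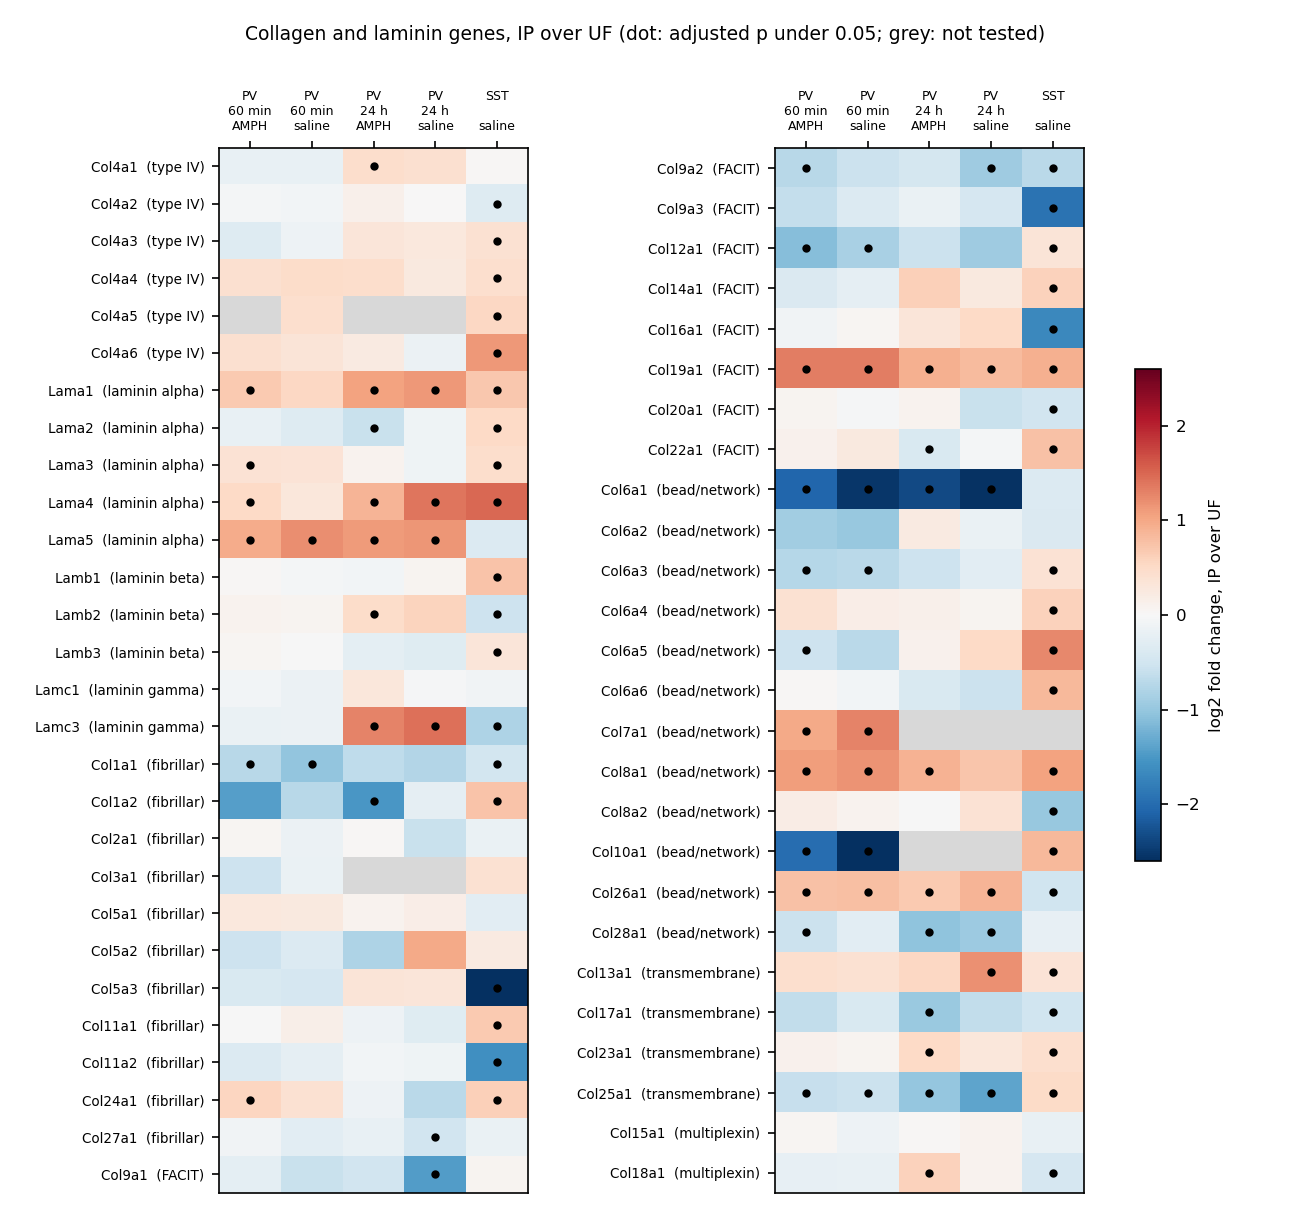
Log2 fold change of IP over UF for 54 collagen and laminin genes in each of the 5 comparisons, coloured from lower in IP (blue) to higher in IP (red), with a dot where the adjusted p was under 0.05 and grey where a gene was not tested. Col19a1 is red with a dot in all 5 columns, and Lama5 is red with a dot in the 4 PV columns only.

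Among the fibril-associated collagens, Col19a1, which mouse interneurons are known to make, had the highest fold change. Its summed accessibility was 207, 171, 135 and 176 CPM in the 4 PV IP libraries (numbered 1, 2, 4 and 5), against 76.2, 61.7, 64 and 72.4 in UF. Every IP library lay above every UF library (a log2 fold change of 1.33 ± 0.13 SE, adjusted p = 2.8e-05 by edgeR). In the AMPH mice, whose libraries the saline comparison does not use, it was 1.34 ± 0.16 SE (adjusted p = 1.6e-05 by edgeR). Col12a1, a fibril-associated collagen of tendon and skin, went the other way, with 28.5, 17.7, 16.2 and 19.9 CPM in IP against 38.6, 31.5, 32.9 and 42.1 in UF, again without overlap (a log2 fold change of -0.83 ± 0.19 SE, adjusted p = 0.00549 by edgeR). From regions within 1 kb of the gene ends alone Col12a1 was not called (-0.28). The remaining 7 genes of this class were not called in the saline mice, and with the replicate block Col9a1 (-0.64) and Col9a2 (-0.60) were called lower.

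Laminin alpha chains decide which receptors a laminin binds. Lama5, the alpha chain of many mature basement membranes, had 42.6, 68.5, 82.1 and 89.8 CPM in PV IP, against 31.1, 34.1, 26.7 and 31.1 in UF. The lowest IP library was above the highest UF library, though the IP libraries spread widely (a log2 fold change of 1.21 ± 0.19 SE, adjusted p = 4.8e-04 by edgeR). From regions within 1 kb of its gene ends the value was 1.23 and the call was lost. Lama1, an alpha chain of early embryonic basement membranes, was 0.55 ± 0.25 SE (adjusted p = 0.131 by edgeR); Lama3, of epithelial laminins, 0.36 ± 0.15 SE (adjusted p = 0.0996 by edgeR); and Lama4, of vessel walls, 0.30 ± 0.21 SE (adjusted p = 0.333 by edgeR). Lama2, the alpha chain missing in a congenital muscular dystrophy, had 113, 58.5, 54.6 and 99 CPM in IP, against 122, 88.9, 100.4 and 99 in UF, with overlapping groups (-0.34 ± 0.20 SE, adjusted p = 0.241 by edgeR). With the replicate block Lama3 was called higher (0.35, adjusted p = 0.0036) and Lama2 lower (-0.40, adjusted p = 0.0269). Neither Lama1 nor Lama4 was called in either fit.

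No beta or gamma chain gene was called in PV+ nuclei at 60 min, with or without the block. The log2 fold change was -0.16 for Lamc3, with Lamc1 at -0.15, Lamb1 at -0.05, Lamb2 at 0.08 and Lamb3 at less than 0.01 in size. Lamc1, which encodes the gamma chain of most laminins, had 133, 119, 125 and 104 CPM in IP, against 143, 139, 136 and 114 in UF. These groups overlapped.

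The 6 type IV genes, which encode the network of the basement membrane, were not called either. The paired genes Col4a1 and Col4a2, which lie head to head and share 3 regions here, were at -0.20 and -0.07, and Col4a3 was at -0.13. Col4a4 was 0.47 ± 0.19 SE (adjusted p = 0.0821 by edgeR), although its IP libraries (26.2, 19.6, 19 and 29.2 CPM) all lay above the UF libraries (17.1, 15.6, 17.9 and 16.7 CPM). With the replicate block Col4a4 passed the test (0.45, adjusted p = 0.0351). Col4a5 and Col4a6, a second head-to-head pair, were at 0.44 and 0.34 with overlapping groups.

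Collagens of beaded filaments, anchoring fibrils and networks moved both ways, with 3 of 12 called higher and 3 lower. Col8a1, a short-chain network collagen of vessel walls and the cornea, had 57, 42, 29.5 and 63.2 CPM in IP, against 21.4, 19.8, 23.6 and 20.0 in UF (a log2 fold change of 1.17 ± 0.21 SE, adjusted p = 0.00111 by edgeR). Col7a1, the collagen of the anchoring fibrils of skin, was open at a low level, with 8.83, 6.05, 5.2 and 7.94 CPM in IP, against 3.24, 2.11, 2.77 and 3.3 in UF (a log2 fold change of 1.30 ± 0.32 SE, adjusted p = 0.00817 by edgeR). Col26a1, first described in mouse testis and ovary, had 107, 123, 72.8 and 101 CPM in IP, against 63, 67.3, 49.3 and 56 in UF (a log2 fold change of 0.78 ± 0.16 SE, adjusted p = 0.00235 by edgeR). For each of these genes every IP library was above every UF library. With only regions within 1 kb of its gene ends Col26a1 was -0.07.

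Col6a1 is a chain of the beaded filament collagen VI. It had 1.77, 1.48, 2.73 and 1.62 CPM in PV IP against 13.8, 13.4, 8.87 and 8.63 in UF, with no overlap (a log2 fold change of -2.53 ± 0.33 SE, adjusted p = 1.1e-04 by edgeR). Col6a3, another chain of that collagen, had 25.7, 16.9, 14.4 and 14.3 CPM in IP, against 33.7, 27.5, 29.5 and 24.2 in UF. These groups overlapped (a log2 fold change of -0.70 ± 0.21 SE, adjusted p = 0.0227 by edgeR), and the call was lost without IP library 4 or 5 or UF library 1 or 4 (-0.61 to -0.69). Col10a1, a collagen of growth plate cartilage, was lower as well (a log2 fold change of -2.59 ± 0.54 SE, adjusted p = 0.00312 by edgeR), with 1.26, 0.37, 0.495 and 0.162 CPM in IP, against 4.75, 2.19, 3.6 and 2.41 in UF. Its single region also lies in Nt5dc1, so the value cannot be assigned to Col10a1 alone. With the replicate block Col6a5 (-0.70) and Col6a2 (-1.06) were called lower too. Over the same libraries the oligodendrocyte markers were lower in PV IP (285 to 404 CPM summed, against 578 to 749 CPM in UF, no marker at 0), and their part in the losses was not tested.

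Of the fibrillar collagens, which build the cables of connective tissue, 1 of 11 was called. Col1a1, the main chain of type I collagen, had 10.1, 15.9, 12.1 and 11.3 CPM in IP, against 23.5, 31.7, 23.7 and 22.2 in UF, without overlap (a log2 fold change of -1.02 ± 0.20 SE, adjusted p = 0.00222 by edgeR). With the replicate block Col5a1 (0.24) was called higher and Col5a3 (-0.43) lower. The transmembrane collagen Col25a1, known from amyloid plaques and needed in mice for motor axons to innervate muscle, had 144, 83.1, 82.9 and 98.5 CPM in IP, against 154, 136, 160.0 and 149 in UF. It was called lower (a log2 fold change of -0.56 ± 0.16 SE, adjusted p = 0.0177 by edgeR) although IP library 1 lay inside the range of the UF libraries, and not called without UF library 4 (-0.53). With the replicate block the transmembrane collagens Col13a1 (0.36) and Col17a1 (-0.46) were called as well. Neither multiplexin, Col15a1 nor Col18a1, was called in either fit.

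In the AMPH mice at 60 min, 18 of 54 members were called between PV IP and UF (9 higher, 9 lower), against 28.2% of all genes. Col19a1, Col8a1, Col7a1, Lama5 and Col26a1 were again higher, at 1.34, 1.08, 0.99, 0.96 and 0.76. Col6a1, Col10a1, Col12a1, Col6a3, Col1a1 and Col25a1 were again lower, at -2.06, -1.98, -1.11, -0.74, -0.71 and -0.60. Lama1 (0.69), Lama4 (0.51) and Lama3 (0.37) were called higher in the AMPH mice and, without the block, not in the saline mice, where Lama3 was called with it. The difference between treatments was not called for any of them. Leaving out 1 library at a time, Lama3 lost its call in 5 fits, Lama4 in 4 and Col7a1 in 6. Col10a1 lost its call without IP library 2 (-1.41), Col1a1 without IP library 3 (-0.59) and Col6a3 without IP library 1 or UF library 3 (-0.62 and -0.54).

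**Figure D2:**
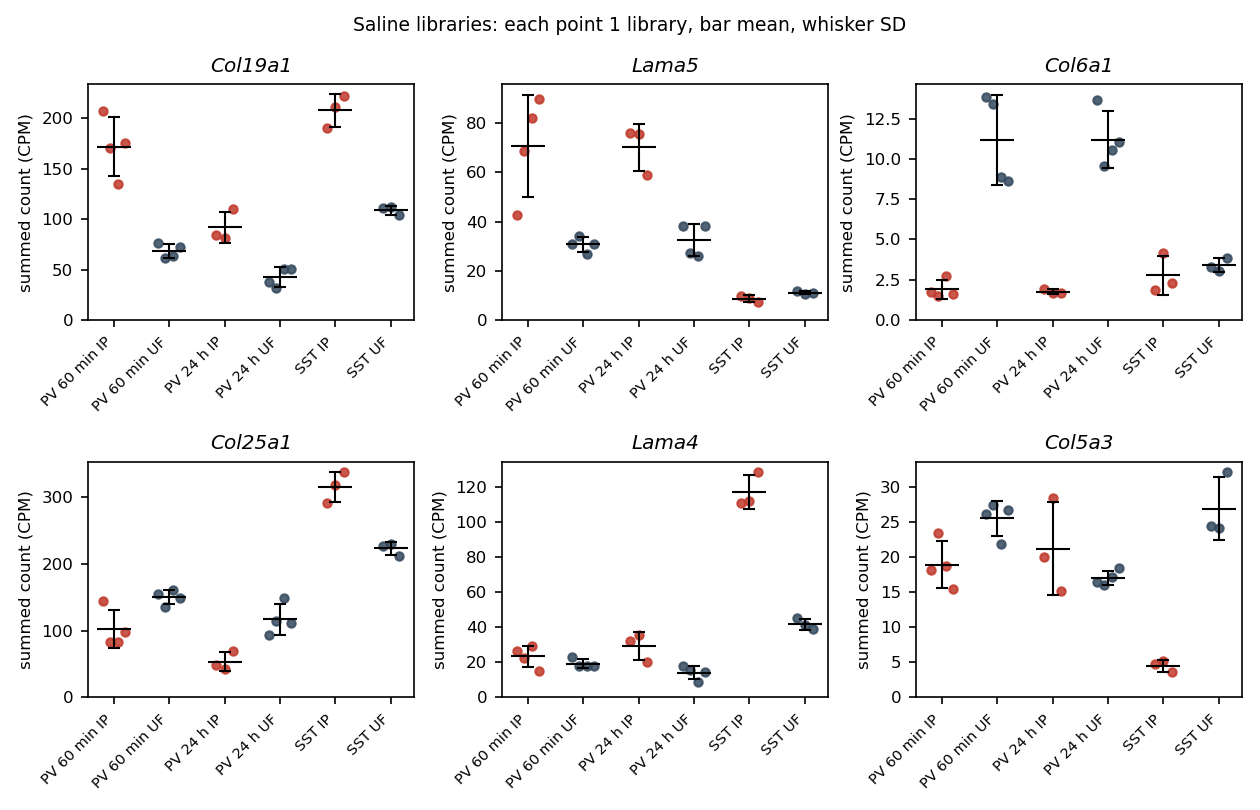
Accessibility summed per gene (CPM, y axis from 0) in each saline library for 6 genes, with IP left of UF in each set, a bar at the mean and whiskers of 1 SD. Col19a1 is higher in IP in all 3 sets, Col25a1 is lower in PV IP and higher in SST IP, and Col5a3 is lower in SST IP without overlap. Levels between sets rest on different regions and are not comparable.

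In the SST line more of the members differed. Of 54 genes 40 were called, 26 higher and 14 lower, against 58.3% of all 16883 genes (28.9% higher, 29.4% lower). The members' median log2 fold change was 0.28, against -0.01 over all genes, and their summed accessibility was 3353 ± 209 CPM in SST IP, against 2709 ± 70.3 in UF (SD, 3 libraries each). In PV IP it was 2874 ± 375 CPM against 2771 ± 244 in UF at 60 min (4 libraries each). With only regions within 1 kb of the gene ends 22 of 39 members were called, against 54.1% of all genes in that fit.

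Among laminin alpha chains, 4 of 5 were called higher in SST+ nuclei. Lama4 had the highest fold change of all members, with 111, 112 and 129 CPM in SST IP, against 45.3, 41.1 and 39 in UF, without overlap (a log2 fold change of 1.49 ± 0.10 SE, adjusted p = 6.2e-09 by edgeR). Lama1 (0.71 ± 0.10 SE, adjusted p = 2.4e-05 by edgeR), Lama2 (0.53 ± 0.09 SE, adjusted p = 1.2e-04 by edgeR) and Lama3 (0.46 ± 0.09 SE, adjusted p = 3.4e-04 by edgeR) were also higher. The sign for Lama2 depended on the regions used, and from its gene ends alone it was -0.88. Lama5, which was higher in PV+ nuclei, had 9.93, 9.07 and 7.29 CPM in SST IP, against 11.8, 10.4 and 11 in UF. It was not called (-0.35 ± 0.18 SE, adjusted p = 0.107 by edgeR), although without IP library 1 it passed as lower (-0.45). Vascular endothelial cells are a source of Lama4 and Lama5 in brain. Their markers summed to 247 to 292 CPM in SST IP, against 290 to 299 CPM in UF with no marker at 0. Of 11 tested, 2 were called higher and 2 lower. Mean CPM of pericyte, smooth muscle and fibroblast markers was more often higher than lower in SST IP. Acta2 (25.0 against 14.8 in UF), Kcnj8 (19.7 against 10.8) and Dcn (19.2 against 7.20) were higher. Tagln (4.82 against 7.09), Bgn (6.17 against 7.83) and Foxd1 (1.24 against 2.37) were lower. The part of these cells in the Lama4 value was not tested.

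Of the beta chains, Lamb1 was higher in SST IP (0.75 ± 0.11 SE, adjusted p = 2.6e-05 by edgeR) and Lamb3, of epithelial laminins, slightly so (0.31 ± 0.11 SE, adjusted p = 0.0198 by edgeR), a call lost without IP library 3 or UF library 1 or 3 (0.27 to 0.30). Lamb2, the beta chain of synaptic and vascular laminins, was lower (-0.53 ± 0.15 SE, adjusted p = 0.00487 by edgeR), and its only region there also lies in Usp19. Lamb1 had 78, 84 and 95.4 CPM in IP, against 49, 57.5 and 47.5 in UF, with no overlap. Lamc3, a gamma chain of the cortical surface and retina, was lower (-0.81 ± 0.20 SE, adjusted p = 0.00258 by edgeR), but without the region it shares with Aif1l it was -0.17 and not called. Aif1l is a relative of the microglial marker gene Aif1. Lamc1 was at -0.09 and was not called.

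In type IV collagen, 4 of 6 genes were higher in SST+ nuclei and 1 was lower. Col4a6 had 64.8, 70.0 and 79 CPM in IP, against 32.3, 35 and 30.3 in UF, without overlap (a log2 fold change of 1.14 ± 0.11 SE, adjusted p = 3.7e-07 by edgeR). Col4a5, Col4a4 and Col4a3 were at 0.55, 0.43 and 0.40 (adjusted p = 0.0376, 0.00908 and 0.0494), and Col4a4 lost its call without UF library 3 (0.37). Col4a5 lost its call without IP library 2 or 3 or UF library 1 or 3 (0.41 to 0.58), and Col4a3 without any library other than IP library 1 (0.27 to 0.44). Col4a2 was lower, with 91.1, 89 and 89.6 CPM in IP, against 113, 112 and 117 in UF (a log2 fold change of -0.34 ± 0.09 SE, adjusted p = 0.003 by edgeR), while Col4a1 stood at 0.03. From the gene ends alone Col4a2 was 0.07.

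The higher members of the other classes were led by the beaded filament collagen Col6a5, with 37, 32 and 37.3 CPM in SST IP, against 16.5, 12.9 and 15 in UF (a log2 fold change of 1.26 ± 0.14 SE, adjusted p = 1.1e-06 by edgeR). Col8a1 had 76.4, 83.4 and 82.9 CPM in IP, against 41.4, 44.2 and 31.5 in UF, and Col19a1 had 190.2, 212 and 222 CPM in IP, against 111, 112 and 104 in UF. Both were called (1.06 and 0.93), and they were the only members called higher in IP in both lines in the saline mice. Col10a1 (0.85, overlapping groups, all regions shared with Nt5dc1), Col6a6 (0.83), Col22a1 (0.76) and Col1a2 (0.74), the second chain of type I collagen, followed. From its gene ends alone Col1a2 was -0.01. Col25a1 had 292, 317 and 337 CPM in IP, against 227, 229.9 and 212 in UF, higher in every IP library (0.50 ± 0.08 SE, adjusted p = 6.2e-05 by edgeR).

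The strongest losses in SST+ nuclei were in fibrillar and fibril-associated collagens. Col5a3, a minor chain of type V collagen, had 4.73, 5.13 and 3.57 CPM in IP, against 24.4, 24.2 and 32.2 in UF (a log2 fold change of -2.61 ± 0.20 SE, adjusted p = 1.4e-08 by edgeR). Col9a3, which in cartilage decorates type II fibrils, had 2.36, 3.55 and 3.14 CPM in IP, against 12.4, 11.2 and 10.6 in UF (a log2 fold change of -1.92 ± 0.22 SE, adjusted p = 1.8e-06 by edgeR), and its partner chain Col9a2 was at -0.71. Col16a1 had 12.3, 10.1 and 12.9 CPM in IP, against 31.6, 39.6 and 41.6 in UF (a log2 fold change of -1.67 ± 0.15 SE, adjusted p = 1.4e-07 by edgeR). In none of the 3 genes did the groups overlap. Col11a2 (-1.60), whose 3 regions all lie in Rxrb as well, Col8a2 (-0.99), Col17a1 (-0.52), Col26a1 (-0.51) and Col20a1 (-0.49) were lower too. Col17a1 was not called without the region it shares with Slk (-0.22), and Col26a1 lost its call without IP or UF library 3 (-0.38 and -0.45). Oligodendrocyte markers summed to 354 to 375 CPM in SST IP, against 662 to 713 CPM in UF with no marker at 0, and their part in these losses was not tested.

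The difference between the lines was tested as the PV fold change minus the SST fold change, over the saline libraries. It was called for 19 of 54 members, 8 higher in PV and 11 lower, against 22% of all genes. Line and region set cannot be told apart here. Col5a3 (difference 2.18 ± 0.28 SE, adjusted p = 4.1e-05 by edgeR), Col16a1 (1.73), Col9a3 (1.56), Lama5 (1.56), Col11a2 (1.37) and Col26a1 (1.29) had the largest positive differences. Col5a3, Col16a1, Col9a3 and Col11a2 were called lower in SST IP and not called in PV IP without the block. In PV, Col16a1 had 60.3, 78.9, 63.4 and 65.3 CPM in IP, against 64.1, 74.2, 59.4 and 60.6 in UF. Lama5 and Col26a1 were called higher in PV IP.

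The largest negative differences were in Col10a1 (difference -3.43 ± 0.58 SE, adjusted p = 4.4e-04 by edgeR), Col6a1 (-2.18), Col6a5 (-1.95), Lama4 (-1.18), Col12a1 (-1.17) and Col6a3 (-1.09). Col25a1 (-1.06, adjusted p = 0.00133) was called lower in PV IP and higher in SST IP, as were Col10a1, Col12a1 and Col6a3. The SST calls of Col12a1 (0.25 to 0.34) and Col6a3 (0.35 to 0.39) were each lost in 4 of the 6 fits that leave out 1 library: Col12a1 without IP library 2 or 3 or UF library 1 or 3, and Col6a3 without IP library 2 or any UF library. Col26a1 was called in the opposite pattern. Col1a1 was called lower in both lines, in SST not without IP library 2 (-0.39). For Col6a1 the SST groups overlapped (1.89, 4.14 and 2.29 CPM in IP, against 3.31, 3.07 and 3.87 in UF). Col19a1 and Col8a1 showed no called difference between the lines, at 0.40 and 0.11.

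The PV and SST region sets overlapped in part: 421 of the 694 PV regions and 419 of the 602 SST regions overlapped a region of the other set by at least 100 bp. Summing only those regions, an alternative chosen after seeing the data, 14 of 53 members were called (5 higher, 9 lower), against 19.7% of all genes in that fit. Col5a3 (2.03), Col16a1 (1.41), Col11a2 (1.29), Col26a1 (1.16), Col6a1 (-2.22), Col10a1 (-3.04), Col12a1 (-1.08), Col6a3 (-1.28) and Col25a1 (-0.86) kept their call. Lama5 (0.55, adjusted p = 0.245), Lama4 (-0.40, adjusted p = 0.273), Col6a5 (-0.96, adjusted p = 0.0649) and Col9a3 (1.01, adjusted p = 0.0577) did not pass the test. From gene ends alone Col5a3 was 0.04 (adjusted p = 0.982).

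**Figure D3:**
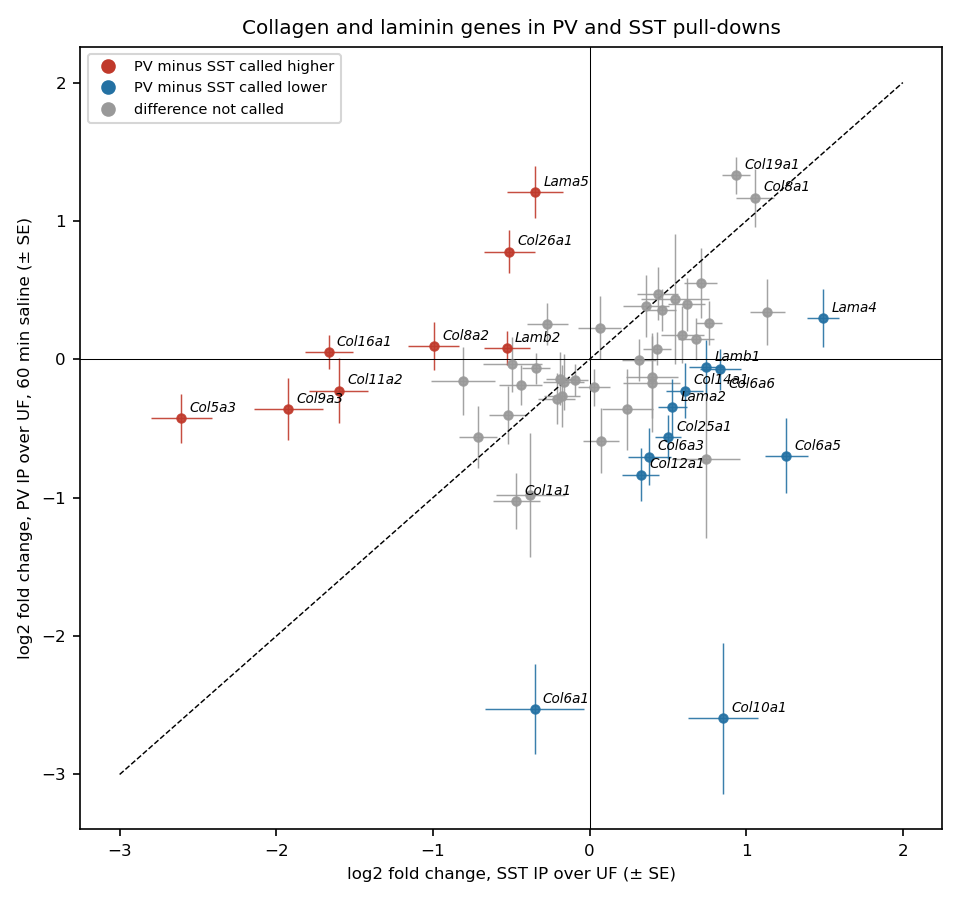
Log2 fold change of IP over UF in the PV line at 60 min (y axis) against that in the SST line (x axis) for the collagen and laminin genes tested in both, with SE bars and a dashed line of equal values. Points are red or blue where the difference between the lines was called, for 8 genes above and 11 genes below the line. Lama5 and Col26a1 lie above 0 in PV and below 0 in SST.

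Single regions were tested to see where in a gene the difference lay. At 60 min 589 of the 694 member regions were tested, and 133 were called higher and 155 lower in PV IP (48.9%, against 44.8% of all regions). In SST 600 of 602 were tested, and 174 were called higher and 119 lower (48.8%, against 46.8%). The median log2 fold change over member regions was -0.06 in PV and 0.14 in SST.

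Col19a1 (chr1:24257683-24587922) had regions called higher at positions along its whole length. In PV 16 of its 25 tested regions were called higher and 0 lower, and in SST 22 of 37 were higher and 2 lower. At its promoter, the window printed above, the overlapping region had 12.2 ± 2.72 CPM in PV IP, against 3.02 ± 0.768 in UF (SD, 4 libraries each; log2 fold change 1.92 ± 0.29 SE, adjusted p = 7.3e-05 by edgeR). In SST it had 9.18 ± 2.11 CPM in IP, against 5.08 ± 0.85 in UF (SD, 3 libraries each; 0.85 ± 0.22 SE). The groups did not overlap in either line.

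Lama5 (chr2:180176373-180225904) had 7 of 10 tested regions called higher and 1 lower in PV, while only 3 regions were tested in SST, with 0 higher and 1 lower. At the Lama5 promoter printed above the region had 6.63 ± 4.53 CPM in PV IP, against 2.66 ± 0.845 in UF (SD, 4 libraries each), and the libraries overlapped (1.27 ± 0.44 SE, adjusted p = 0.0241 by edgeR). In SST the promoter region had 1.71 ± 0.763 CPM in IP, against 3.28 ± 0.847 in UF (SD, 3 libraries each), called lower with overlapping libraries (-0.92 ± 0.33 SE, adjusted p = 0.0182 by edgeR). The difference between the lines at single regions was not tested.

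Col25a1 (chr3:130180358-130599884) and Lama2 (chr10:26981285-27617191) held regions that went both ways. In Col25a1 6 of 31 tested regions were higher and 15 lower in PV, and 16 of 47 were higher and 3 lower in SST. Within its gene body, chr3:130579644-130579843 had 7.45 ± 2.02 CPM in PV IP, against 0.479 ± 0.108 in UF, while chr3:130270945-130271144 had 0.325 ± 0.154 CPM in PV IP, against 3.42 ± 1.57 in UF (SD, 4 libraries each; log2 fold changes 3.90 and -3.50). The promoter of Col25a1 was lower in PV IP (-1.2 ± 0.33 SE), in a region that overlaps only 44 bp of the window, and higher in SST IP (0.68 ± 0.13 SE), in a different region that lies wholly inside it. In Lama2 3 of 27 regions were higher and 11 lower in PV, and 18 of 43 were higher and 8 lower in SST. A Lama2 region in SST, chr10:27497379-27497578, had 4.22 ± 0.417 CPM in IP, against 0.240 ± 0.168 in UF (SD, 3 libraries each), whereas the Lama2 promoter region was lower (-1.16 ± 0.33 SE).

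**Figure D4:**
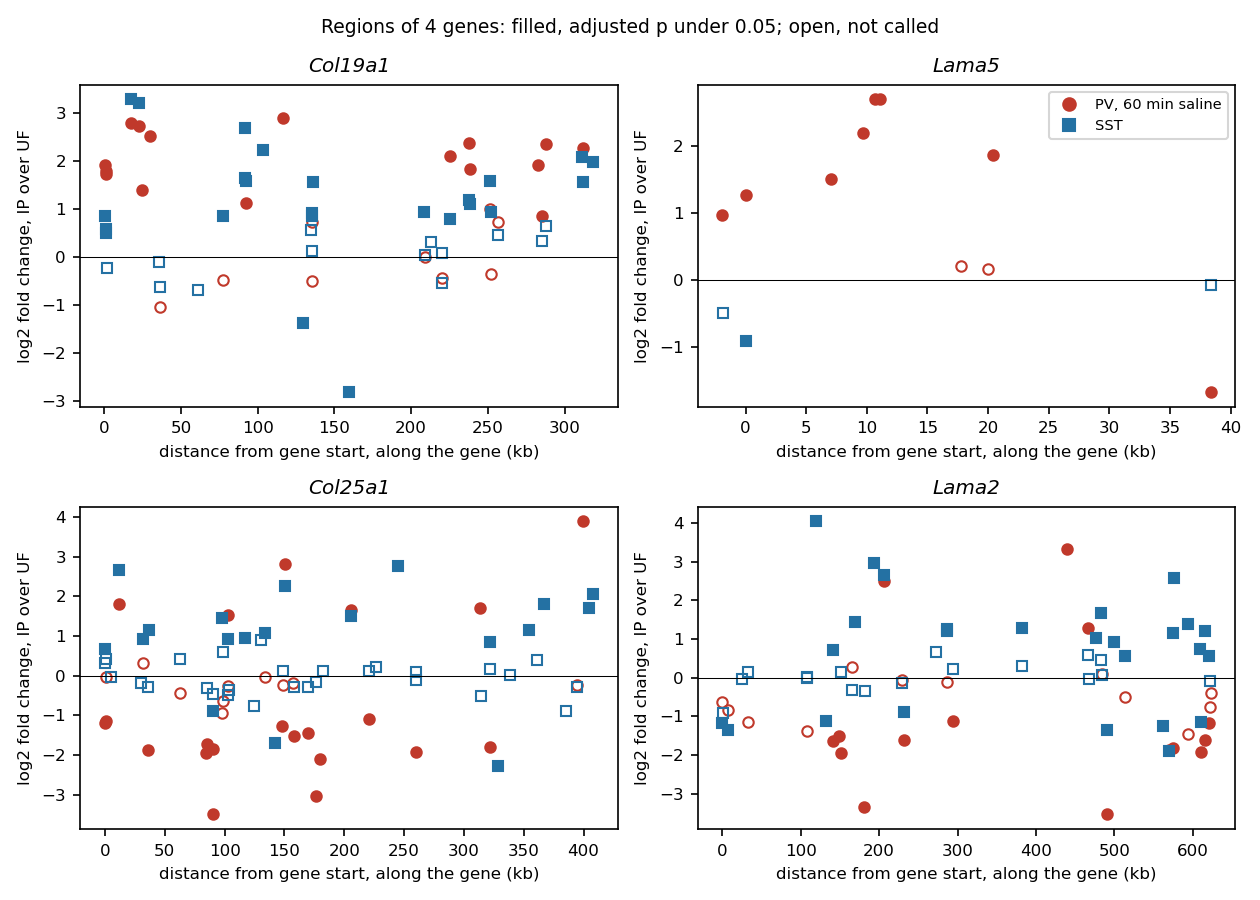
Log2 fold change of IP over UF for each tested region of Col19a1, Lama5, Col25a1 and Lama2. The x axis is the distance in kb from the start of the gene span, which can differ from the promoter start. Circles are PV at 60 min and squares SST, filled where the adjusted p was under 0.05. Filled points of Col19a1 are above 0 in PV at every position, while those of Col25a1 and Lama2 lie on both sides of 0 in each line.

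Other named regions followed a rule on the largest called differences. In PV IP they were higher in Col28a1 (chr6:8046615-8046814, 3.88 ± 1.60 CPM in IP, against 0.236 ± 0.155 in UF) and Col8a1 (chr16:57690712-57690911, 5.89 ± 4.90 CPM in IP, against 0.405 ± 0.217 in UF). They were lower in Col17a1 (chr19:47678766-47678965, 1.07 ± 0.837 CPM in IP, against 10.2 ± 2.61 in UF) and Col27a1 (chr4:63251877-63252076, 0.948 ± 0.468 CPM in IP, against 8.54 ± 0.959 in UF). Neither Col28a1, Col17a1 nor Col27a1 was called as a whole gene in the saline mice at 60 min without the block.

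In SST IP the highest regions were in Col11a1 (chr3:114212257-114212456, 11.0 ± 1.03 CPM in IP, against 0.543 ± 0.384 in UF) and Lama4 (chr10:39005500-39005699, 15 ± 2.91 CPM in IP, against 0.945 ± 0.0921 in UF). The lowest were in Col28a1 (chr6:8069081-8069280, 0.343 ± 0.150 CPM in IP, against 5.03 ± 0.828 in UF), Col16a1 (chr4:130054839-130055038, 0.717 ± 0.0699 CPM in IP, against 8.35 ± 1.41 in UF) and within 2 kb of Col5a3 (chr9:20816711-20816910, 0.373 ± 0.471 CPM in IP, against 5.46 ± 0.463 in UF). All these regions lie in gene bodies except that of Col5a3, which also counts for Rdh8. In Lama4 11 of 19 tested regions were higher in SST and 1 was lower, against 1 higher and 1 lower of 6 tested in PV.

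Of all regions tested, at promoters or elsewhere, 21.5% were called higher and 23.3% lower in PV at 60 min. In SST these shares were 24.1% and 22.7%. Over all promoter windows of the members, 18 regions of 18 genes were tested in PV at 60 min, with 2 called higher (Col19a1 and Lama5) and 3 lower. The lower ones were Col6a1 (1.19 ± 0.463 CPM in IP, against 6.91 ± 1.22 in UF, SD, 4 libraries each), Col25a1 and the shared start of Col4a1 and Col4a2 (-0.88 ± 0.27 SE, adjusted p = 0.0143 by edgeR). In SST 20 regions of 19 genes were tested, with 5 higher (Col19a1, Col11a1, Col8a1, Col25a1 and Lamb1) and 5 lower (Col16a1, Lama2, Col11a2, Lama5 and Col27a1). The Col16a1 promoter region had 1.99 ± 0.421 CPM in SST IP, against 6.62 ± 1.33 in UF (SD, 3 libraries each), against 6.38 ± 1.87 CPM in PV IP, against 7.64 ± 1.21 in UF (SD, 4 libraries each; -0.30 ± 0.28 SE, not called).

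At 24 h after 6 days of saline, 13 of 51 members were called between PV IP and UF (7 higher, 6 lower), against 14.9% of all genes (7.13% higher, 7.75% lower). Leaving out IP library Iso2-1 or Iso2-3 left 7. Lamc3 had 53.7, 57.5 and 38.8 CPM in the 3 IP libraries, against 31.4, 16.1, 23 and 15.1 in the 4 UF libraries, without overlap (a log2 fold change of 1.44 ± 0.30 SE, adjusted p = 4.8e-04 by edgeR). Lama4 had 32.2, 35.4 and 20.3 CPM in IP, against 17.7, 15.5, 8.93 and 14.4 in UF (a log2 fold change of 1.39 ± 0.36 SE, adjusted p = 0.00533 by edgeR), and lost its call without IP library Iso2-2 (1.24). Lama5 had 75.9, 75.6 and 59.1 CPM in IP, against 38.2, 27.4, 26.2 and 38.4 in UF (a log2 fold change of 1.15 ± 0.25 SE, adjusted p = 8.3e-04 by edgeR). In all 3 genes the lowest IP library was above the highest UF library. Lama1 (1.13), Col13a1 (1.2), Col26a1 (0.89) and Col19a1 (0.81) were also called higher, Lama1 with overlapping libraries. Lama1 lost its call in 5 of the 7 fits that leave out 1 library (0.62 to 1.15), Col26a1 without IP library Iso2-1 or UF library Iso2-2 (0.80 and 0.67), and Col19a1 without IP library Iso2-3 (0.70).

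Lower at 24 h in saline mice were Col6a1 (-2.56), Col9a1 (-1.45), Col25a1 (-1.38), Col28a1 (-0.95), Col9a2 (-0.93) and Col27a1 (-0.50). Col28a1, Col9a1 and Col9a2 lost their calls in 4, 2 and 3 of the fits that leave out 1 library. Col6a1 had 1.93, 1.68 and 1.69 CPM in IP, against 13.6, 9.53, 10.5 and 11.1 in UF, and Col25a1 had 48.5, 43.1 and 69.2 CPM in IP, against 92.8, 114, 148 and 112 in UF. Neither pair of groups overlapped, and both genes kept their call in every fit that left out 1 library. The fits carry a term for the isolation number, and all saline IP libraries belong to isolation 2, so these fold changes rest on the isolation 2 libraries.

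Vascular endothelial markers moved with the 24 h pull-down. They summed to 553 to 668 CPM in PV IP, against 240 to 271 CPM in UF after saline (10 of 12 called higher, 0 lower), with no marker at 0 in IP and 1 at 0 in each of 2 UF libraries. At 60 min the same list summed to 269 to 507 CPM in PV IP, against 255 to 298 CPM in UF (4 of 11 higher, 1 lower), and IP library 4 stood at 507 CPM. Fibroblast and meningeal markers summed to 127 to 151 CPM in IP, against 45 to 76.2 CPM in UF at 24 h (4 of 11 higher). In saline PV mice at 60 min the mean CPM of pericyte, smooth muscle and fibroblast markers went both ways. Pdgfrb (62.2 in IP against 32.0 in UF), Rgs5 (17.6 against 8.57), Acta2 (17.9 against 8.44) and Foxc1 (8.79 against 4.46) were higher. Notch3 (22.1 against 29.9), Fmod (24.1 against 31.0), Bgn (5.90 against 7.54) and Islr (6.39 against 8.09) were lower. The part of vascular and fibroblast nuclei in the 24 h values of Lama4, Lama5 and Lamc3, and in the 60 min value of Lama5, was not tested.

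In the AMPH mice at 24 h, 18 of 51 members were called (11 higher, 7 lower), against 24.4% of all genes. Fraction and isolation were unbalanced there: Iso1-1 is the only IP library of isolation 1, and Iso2-1 the only UF library of isolation 2. With the isolation term, the fit without IP library Iso1-1 sets the isolation 2 IP libraries against UF library Iso2-1 alone. Without UF library Iso2-1, the fit sets IP library Iso1-1 alone against the isolation 1 UF libraries, and fewer members were called. Lamc3 (1.29), Lama5 (1.11), Lama1 (1.04) and Lama4 (0.88) were again higher. Lamc3 had 51.3, 51.1, 40.3 and 38.9 CPM in IP, against 20.6, 17.6, 19 and 19.7 in UF. Col4a1 (0.46) and Lamb2 (0.48) joined the higher genes here, and from its gene ends alone Col4a1 was -0.27. Without IP library Iso1-1 the calls of Lama1 (0.59), Lama4 (0.57), Col4a1 (0.31) and Lamb2 (0.56) were lost, and that of Lamb2 also without IP or UF library Iso2-1 (0.40 each). Col6a1 (-2.35), Col1a2 (-1.51), Col28a1 (-1.06) and Col25a1 (-1.01) were the lowest, and without UF library Iso2-1 Col1a2 (-1.26) and Col28a1 (-0.97) were not called.

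Over the 4 PV comparisons of IP with UF, which use separate libraries, 51 members were tested in all. Col19a1, Lama5 and Col26a1 were called higher in all 4, and Col6a1 and Col25a1 were called lower in all 4, which is 9.80% of the members tested. From gene ends alone Col26a1 turned direction in the saline mice, to -0.073 at 60 min and -0.35 at 24 h. Of 15844 genes tested in all 4 comparisons, 5.89% were called the same way in each.

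Whether the PV pull-down differed between 24 h and 60 min in the saline mice was tested as the difference of the fold changes, a comparison added after seeing the data. It was called for 0 of 54 members by edgeR, against 0.467% of all genes, and for 1 by DESeq2. In the edgeR fit 11 members (20.4%) had an unadjusted p under 0.05, against 16.5% of all genes. Lamc3 (difference 1.51 ± 0.41 SE, adjusted p = 0.0722 by edgeR), Col25a1 (difference -0.91 ± 0.27 SE, adjusted p = 0.102 by edgeR) and Col24a1 (difference -1.19 ± 0.36 SE, adjusted p = 0.106 by edgeR) had the lowest p. Without PV IP library 4 at 60 min, the library with 507 CPM of endothelial markers, these 3 genes were called (1.68, -1.0 and -1.30), against 4.25% of all genes in that fit. The 24 h and 60 min libraries were counted over different regions, and over the regions that both sets hold the values were 1.19 for Lamc3 (adjusted p = 0.235 by edgeR), -0.73 for Col25a1 (adjusted p = 0.309) and -0.75 for Col24a1 (adjusted p = 0.420), with 0 of 53 members called. At 60 min Lamc3 had 15.1, 25.4, 26.4 and 12.3 CPM in IP, against 23.1, 27.3, 20.3 and 18.5 in UF, with overlapping groups.

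AMPH was compared with saline within each fraction to ask whether the drug changed the accessibility of these genes. No member was called: 0 of 54 in PV IP and 0 of 55 in UF at 60 min, and 0 of 50 in PV IP and 0 of 51 in UF at 24 h, by edgeR and by DESeq2. Over all genes 0% were called in each comparison. At an unadjusted p under 0.05 there were 0, 4, 8 and 0 members, or 0%, 7.27%, 16% and 0% of those tested, against 1.55%, 3.59%, 3.74% and 3.55% of all genes. The test of AMPH by fraction called 0 of 55 members at 60 min and 0 of 51 at 24 h. At an unadjusted p under 0.05 there were 0 and 2 members (0% and 3.92%), against 0.444% and 3.97% of all genes.

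The size of change that these libraries could show was limited. The median SE of the members' log2 fold change was 0.23 in PV IP and 0.15 in UF at 60 min, and 0.23 in PV IP and 0.24 in UF at 24 h. In PV IP at 60 min the values ran from -0.54 (Col4a5) to 0.67 (Col6a1). The lowest unadjusted p there was that of Col6a5 (0.51 ± 0.26 SE, adjusted p = 1 by edgeR), with 30.3, 19.1, 29.3 and 24.1 CPM after AMPH and 27, 15.7, 18 and 11.8 CPM after saline, followed by Col2a1 (0.40) and Lama4 (0.37). The Col6a5 libraries overlapped.

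In UF at 60 min Col25a1 had 194, 161, 192 and 179 CPM after AMPH and 154, 136, 160.0 and 149 CPM after saline. Every AMPH library lay above every saline library, yet the difference failed the correction (0.28 ± 0.09 SE, adjusted p = 0.97 by edgeR). Lama2 (0.25) and Col28a1 (0.28) were next. At 24 h the lowest unadjusted p in PV IP was that of Col6a4 (0.76 ± 0.23 SE, adjusted p = 1 by edgeR), a beaded filament collagen, with 19.6, 43.7, 42.8 and 37.6 CPM after AMPH and 22.5, 18 and 47.3 CPM after saline, which overlapped. Lama2 (-0.48) and Lama1 (-0.55) followed, and in UF at 24 h Col4a3 (-1.11), Col1a2 (0.77) and Col24a1 (-0.43). No saline IP library at 24 h shares the isolation of AMPH IP library Iso1-1. With the isolation term, every fold change of AMPH over saline in PV IP at 24 h therefore rests on the other IP libraries. The CPM listed for Col6a4 include Iso1-1, so their means do not give its fold change. Among single regions, 0 of 447 in PV IP and 0 of 553 in UF were called at 60 min, against 0% of all regions.

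**Figure D5:**
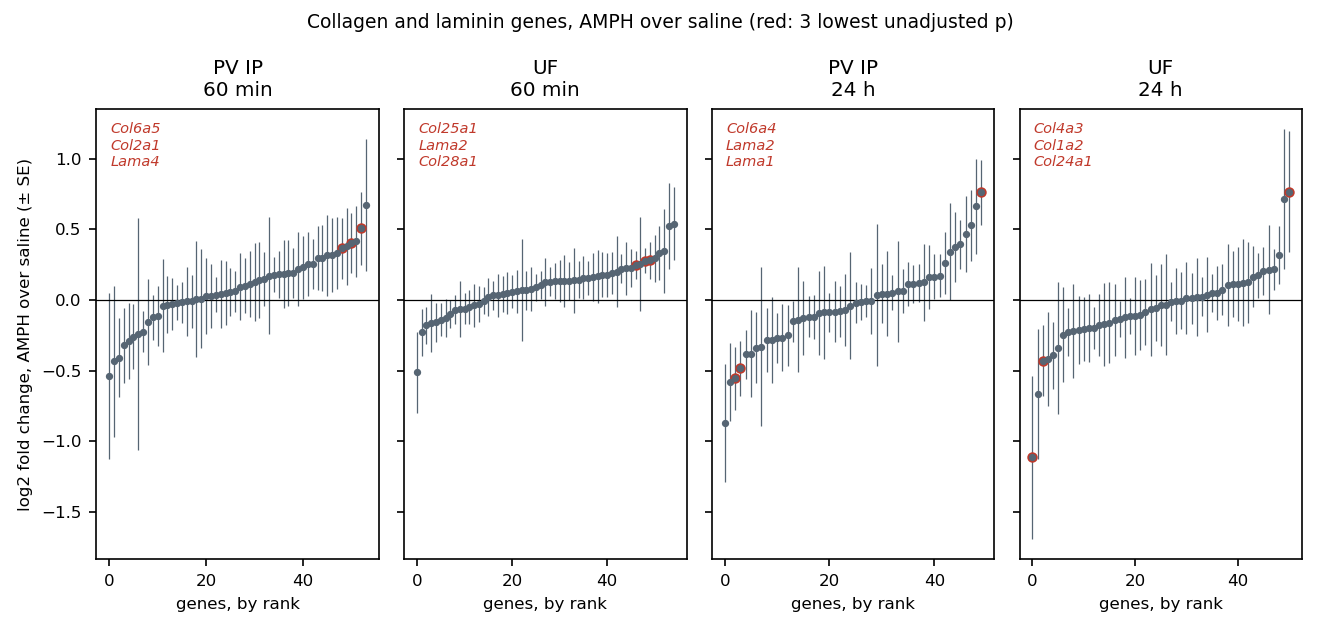
Log2 fold change of AMPH over saline with SE bars for every collagen and laminin gene tested, ranked within each panel, in PV IP and UF at 60 min and at 24 h. Red points mark the 3 lowest unadjusted p of each panel, whose genes are listed there, and no gene passed the adjusted threshold. The SE bars are shortest in UF at 60 min.

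The genes that collagens and laminins work with were read from lists of their receptors, partners, makers and proteases, against the shares and medians of all genes given above. The median log2 fold changes were -0.13 in PV and -0.22 in SST for receptors, -0.20 and -0.27 for basement membrane partners, -0.05 and -0.02 for synthesis and crosslinking, and 0.10 and -0.01 for proteases and inhibitors. Among 14 receptors 1 was called higher and 4 lower in PV IP at 60 min, led by Itga6 (0.58), a laminin receptor chain, and by Lair1 (-2.44), a collagen receptor of immune cells, Itga11 (-1.15) and Itgb4 (-0.76). In SST 2 of 14 were higher (Itga1, 0.54, and Itga3, 0.44) and 5 lower, led by Itgb4 (-1.95), the collagen receptor kinase Ddr1 (-1.64) and Lair1 (-1.41). Of the basement membrane partners 4 of 13 were higher and 3 lower in PV, with Tinagl1 (1.91), the laminin-binding netrin Ntn4 (1.68) and perlecan, Hspg2 (1.37), against the laminin linker Nid1 (-2.20), Fbln2 (-1.69) and Smoc2 (-0.90). In SST 3 of 12 were higher, Ntn4 (0.66) and Egflam (0.46) among them, and 5 lower, led by Nid1 (-1.31), Smoc1 (-0.88) and Sparc (-0.80).

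Of 19 genes of collagen synthesis and crosslinking, 1 was higher (Loxl2, a lysyl oxidase, 0.98) and 1 lower (Pcolce2, -0.50) in PV IP. In SST 5 were higher, led by the lysyl hydroxylase Plod2 (1.25), Adamts3 (0.68) and Loxl2 (0.42), and 7 lower, led by Plod1 (-1.35), P4hb (-0.81) and Colgalt1 (-0.74). Of the matrix proteases and their inhibitors 5 of 11 were higher and 2 lower in PV, with Timp3 (1.09), Timp4 (0.90) and Mmp15 (0.72) against Mmp2 (-1.11) and Timp2 (-0.53). In SST 3 of 12 were higher, led by Mmp8 (4.53), and 4 lower, led by Mmp2 and Timp1 (-1.19 each). Mmp8 was near the floor in SST UF, at 0.140 ± 0.150 CPM with a library at 0, against 3.60 ± 1.07 CPM in IP (SD, 3 libraries each). Lair1, Itgb4, Nid1 and Mmp2 were lower and Ntn4, Timp3 and Loxl2 higher in both lines.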

How the data were processed

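Per the submitters' processing notes, reads were handled with cutadapt 1.8.3 and Bowtie2 2.3.4.3 among the tools listed (also FastQC 0.11.2, bedtools 2.25.0, deepTools, MACS2 2.1.2, DESeq2 1.18.1 and R 3.4.4), on mm10. What the authors deposited are raw counts per 200 bp region, in 3 tables. How regions were defined, and any shift of reads for the transposase, is not given in the sources used here.

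For each of 21887 protein-coding genes (RefSeq GRCm38.p6), the counts of all regions in the gene or the 2 kb on either side were added (GenomicRanges 1.54.1), and some regions serve more than 1 gene. Gene sums and single regions went through edgeR 4.0.16 (R 4.3.3) with TMM scaling, filterByExpr (minimum count 10, minimum total 15) and a robust quasi-likelihood fit, with two-sided tests and Benjamini-Hochberg adjustment over all features. The test was checked on simulated counts. CPM are edgeR's values from TMM-scaled library sizes. The 24 h fits carry a term for isolation. Alternatives were DESeq2 1.42.0, RLE scaling, no count filter, gene ends alone, unshared regions, no isolation term, all 60 min libraries in 1 fit, a replicate block and leaving out each library. Alternatives on regions shared by sets, alternatives for single regions, and the comparison of 24 h with 60 min were added after seeing the data.

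Per the labels each isolation of nuclei used the tissue of a single mouse. The isolation number of the 24 h libraries is shared by AMPH and saline libraries, so it does not name a single mouse. Library pairs within a group differed by more than sampling noise (chi-square divided by its degrees of freedom, 1.61 to 7.61 over 51 pairs). In two-sided exact permutation tests of total counts between compared groups the lowest p was 0.0857 (3 against 3 cannot go below 0.1). Saline PV IP and UF libraries of the same number at 60 min deviated together from their group means (correlations 0.245 to 0.704 over 4 pairs). A fit with the replicate block, which takes their numbers as pairs, is therefore given beside the main fit. The main fits, the 60 min test of AMPH by fraction and the PV minus SST test do not pair the libraries.

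Members and lists were chosen with earlier results of these data known. For IP against UF in saline mice at 60 min and in SST, the 10 highest and 10 lowest called members were named, with all type IV collagen and laminin genes. For AMPH the 3 lowest p were named, for PV against SST the 6 largest called differences each way, and for other lists at most 3 genes each way. Named regions were the 3 highest and 3 lowest called with a logCPM of at least 1 and no overlap of groups, 1 per gene. Other genes were named after their values were seen, and some that the rule names are not reported here.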

Additional observations from a re-analysis of the deposited data

Results flagged for a closer look

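The gap from 1 library to the others of its group was large in 3 of 97 groups examined, where chance gives about 1 in 20. Col1a1 had 31.7 CPM in UF library 2 of the saline PV mice at 60 min, against 22.2 to 23.7 CPM in the other libraries of that group. The summed accessibility of all collagen and laminin genes was 2056 CPM in 1 UF library of the AMPH mice at 24 h, where the next library had 1902 CPM. Vascular endothelial markers summed to 507 CPM in PV IP library 4 at 60 min, where the next library had 305 CPM.

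The IP over UF log2 fold change differed between the PV and SST lines by the interaction test of edgeR in 19 genes, of which the 6 largest differences each way are given. The PV value was higher by 2.18 for Col5a3, 1.73 for Col16a1, 1.56 for Col9a3, 1.56 for Lama5, 1.37 for Col11a2 and 1.29 for Col26a1. The difference was -3.43 for Col10a1, -2.18 for Col6a1, -1.95 for Col6a5, -1.18 for Lama4, -1.17 for Col12a1 and -1.09 for Col6a3. The region sets and the lines cannot be told apart in these values.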

How the results depend on the processing

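With the replicate number as a block, 22 members were called in PV IP against UF in saline mice at 60 min (11 without it), 7 at 24 h (13 without it) and 2 in the difference between 24 h and 60 min (0 without it), while 39%, 10.7% and 2.27% of all genes were called (25%, 14.9% and 0.467% without it). Numbers did not pair the libraries in SST (correlations -0.074 to 0.064) or at 24 h. At 24 h in saline mice only the numbers Iso2-1 and Iso2-2 occur in both IP and UF, so the blocked fit there rests on those libraries. In the AMPH mice at 60 min all 4 pairs correlated positively and 3 were over 0.1, short of the rule that every pair be over 0.1 (lowest 0.0994, highest 0.586), and with the block 26 of 54 members were called there (18 without it), against 38.2% of all genes. With only regions within 1 kb of the gene ends, which leaves fewer counts, the number called was 22 in SST (40 with all regions), 5 in saline mice at 24 h (13), 8 in the difference between PV and SST (19) and 1 in that between 24 h and 60 min (0), while 54.1%, 8.64%, 12.6% and 0.0567% of all genes were called. DESeq2 called 1 in the last of these. With the gene ends alone the direction turned for Col26a1 in PV (-0.073 at 60 min, -0.35 at 24 h, saline), for Col1a2 (-0.010), Col4a2 (0.068) and Lama2 (-0.88) in SST, for Lama2 at 24 h (2.99 after saline, 0.48 after AMPH), for Col4a1 at 24 h after AMPH (-0.27) and for Lama2 in the difference between PV and SST (0.23), and the cause was not tested. Leaving out 1 library at a time, members called ranged from 9 to 14 (PV, saline, 60 min), 12 to 22 (AMPH, 60 min), 30 to 42 (SST), 7 to 13 (saline, 24 h), 10 to 20 (AMPH, 24 h), 16 to 23 (PV minus SST) and 0 to 3 (24 h minus 60 min). The shares of all genes called moved too, over 18.5% to 27.3%, 21.4% to 31.8%, 46.9% to 68.2%, 8.14% to 17.8%, 14.9% to 24.5%, 13.7% to 28.1% and 0.012% to 4.25% in the same order. Called member regions ranged from 267 to 325 in PV (42.9% to 50.6% of those tested, against 39.1% to 46.9% of all regions). In SST they ranged from 242 to 290 (40.3% to 48.3%, against 39% to 46.8%). AMPH against saline stayed at 0 to 0 in its 4 comparisons and 2 interaction tests. The shallowest library, at 24 h, held 650666 counts.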

Other observations

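Gene length went with the fold change among these genes. Across members, Spearman's rho between gene length and the log2 fold change of IP over UF was 0.43 in PV at 60 min (n = 55 genes) and 0.57 in SST (n = 54 genes), against 0.06 (n = 16957 genes) and 0.22 (n = 16883 genes) over all genes. These are correlations across genes that share their libraries, and genes are not independent replicates. In SST 21 of 31 members of at least 100 kb were called higher and 3 lower, while of 23 shorter members 5 were called higher and 11 lower. Over all genes in SST, 50% of those of at least 100 kb were called higher and 16% lower, against 25.4% and 31.6% of shorter genes. In PV 3 of 31 longer members were higher and 2 lower, where 19.4% of all longer genes were higher and 12.9% lower. Of 24 shorter members in PV 2 were higher and 4 lower, against 10.5% and 13.2% of all shorter genes.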
